A study of Mus musculus with 2 samples.

Results

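The regions described here are stretches of accessible chromatin that lie between genes, at a middle distance from them. A peak of replicate 1 was trimmed to the part also covered by a peak of replicate 2 (an overlap of at least 1 bp), which gave 96639 shared regions on the autosomes. A shared region was kept if no base of it fell inside the body of a protein-coding gene and if its midpoint was more than 10 kb and at most 100 kb from the nearest protein-coding transcript start. This left 17899 regions, 18.5% of the shared regions. Gene positions were those of GENCODE M21 on GRCm38/mm10. The rule itself uses position and the presence of a peak in both replicates, and no peak height.

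The samples were hearts of wildtype (WT) FVB mouse embryos at E11.5, profiled by ATAC-seq, in which a transposase inserts sequencing adapters into open DNA. There were 2 replicates, each made from 2 whole hearts, and they form a single group, so no test between conditions was possible and replicate values are given side by side. Because whole hearts were used, a region open in few cells and a region weakly open in many cells cannot be told apart. Each peak has a fold enrichment, the authors' ratio of the read pileup at its summit to a genome-wide background.

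In vertebrate genomes, many enhancers lie outside genes, at a distance from the promoters they act on. Enhancers are bound by sequence-specific transcription factors, which displace nucleosomes and thereby make the DNA accessible, and a gene active in several tissues often has a separate set of enhancers for each. Intergenic accessible DNA also includes sites of the insulator protein CTCF, which helps to fold chromosomes into loops, and promoters of non-coding RNAs. In the embryonic heart, factors of the GATA, T-box, NK homeobox, HAND, MEF2 and TEAD families act through such distal elements.

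The following sequences show what these regions look like. Each runs 75 bp to both sides of the midpoint between the summits of the replicates. They are given 5′ to 3′ on the plus strand of the GRCm38/mm10 reference (RefSeq copy, strain C57BL/6J, whereas the hearts were FVB) and carry in capitals every match to a searched motif. Regions are named after the gene with the nearest start, which is a statement of distance and not of regulation. The first 5 are the strongest intergenic regions of genes for cardiac transcription factors. The strongest region of a gene is the one whose lower fold enrichment of both replicates is highest. That of *Tbx20* holds a GATA match on each strand, that of *Myocd* a pair of GATA matches, a MEIS match that abuts the second of them and a CAGCTG E-box, and that of *Hand2* a pair of MEIS matches and a HAND/TWIST E-box. That of *Nkx2-5* has a MEIS and a SOX match, and that of *Tbx5* a T-box match. The regions nearest *Tex44* and *Creld2*, chosen after their values were seen, are the strongest with a central CTCF match and with a central MEF2 match, the latter with a pair of matches. The last, nearest *Gpc5*, comes from a region of 2899 bp that contains the start of *Mir17hg*, the host gene of the miR-17-92 microRNA cluster. That start lies 1421 bp from the midpoint of the region, and the printed stretch does not reach it. The sequence shows the CpG-rich kind of region, with no match to a searched motif.
Tbx20, chr9:24848352-24848502: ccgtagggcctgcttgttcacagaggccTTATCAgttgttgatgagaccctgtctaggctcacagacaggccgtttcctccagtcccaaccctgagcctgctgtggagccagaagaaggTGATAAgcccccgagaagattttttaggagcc
Myocd, chr11:65303921-65304071: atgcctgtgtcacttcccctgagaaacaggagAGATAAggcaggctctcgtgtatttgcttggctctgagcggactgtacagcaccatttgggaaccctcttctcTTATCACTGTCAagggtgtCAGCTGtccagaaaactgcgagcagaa
Hand2, chr8:57331859-57332009: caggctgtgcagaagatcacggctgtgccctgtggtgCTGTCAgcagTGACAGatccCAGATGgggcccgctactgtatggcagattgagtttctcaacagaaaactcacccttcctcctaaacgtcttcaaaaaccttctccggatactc
Nkx2-5, chr17:26868895-26869045: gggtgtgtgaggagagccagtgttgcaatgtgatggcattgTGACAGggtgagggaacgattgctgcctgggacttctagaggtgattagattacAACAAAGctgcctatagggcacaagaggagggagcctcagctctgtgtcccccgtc
Tbx5, chr5:119796500-119796650: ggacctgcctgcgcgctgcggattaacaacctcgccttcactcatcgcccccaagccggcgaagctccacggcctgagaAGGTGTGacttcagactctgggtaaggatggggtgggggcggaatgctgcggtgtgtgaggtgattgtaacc
Tex44, chr1:86440637-86440787: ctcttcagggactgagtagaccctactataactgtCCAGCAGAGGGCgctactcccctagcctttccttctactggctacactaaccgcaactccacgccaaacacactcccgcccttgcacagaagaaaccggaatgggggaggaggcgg
Creld2, chr15:88839397-88839547: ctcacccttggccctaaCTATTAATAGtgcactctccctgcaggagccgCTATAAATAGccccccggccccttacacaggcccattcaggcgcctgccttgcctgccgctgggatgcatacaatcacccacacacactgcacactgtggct
Mir17hg (nearest Gpc5), chr14:115040731-115040881: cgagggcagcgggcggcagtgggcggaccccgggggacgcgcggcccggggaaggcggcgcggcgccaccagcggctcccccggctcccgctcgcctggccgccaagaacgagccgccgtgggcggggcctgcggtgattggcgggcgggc

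The strongest region of *Tbx20*, a T-box repressor of the developing myocardium, spanned 606 bp and lay 74.1 kb upstream of the nearest start, with fold enrichments of 22.3 (replicate 1) and 18.1 (replicate 2). That of *Myocd*, a coactivator of smooth and cardiac muscle genes, had 12.2 and 13.3, 34 kb upstream. The strongest region of *Hand2*, a bHLH factor of the right ventricle and outflow tract, spanned 3233 bp, lay 12.1 kb downstream and had 21.5 and 21.1. In replicate 1 alone, a region 32.9 kb downstream was higher, at 22.0. For *Nkx2-5*, the homeobox factor of cardiac progenitors, the values were 13.9 and 9.05, 23.9 kb upstream. *Tbx5*, which patterns the atria and left ventricle, had only weak intergenic regions, the stronger at 5.70 and 4.53, 36.1 kb upstream. The replicates thus differed by less than 2-fold in each of the 5 strongest regions. As each was picked as the strongest of its gene, its height against other regions carries no information. Over all regions of the cardiac transcription factor list described below, the medians were 6.25 and 5.28, against 6.25 and 5.53 over the 17899 regions.

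The tissue label was checked at promoters before the intergenic regions were described. Of all autosomal protein-coding genes, 61.7% were the nearest gene of a shared region within 1 kb of a start. The share was 31 of 32 for cardiac transcription factors, 24 of 25 for cardiac muscle proteins, 20 of 20 for conduction and calcium handling, 18 of 18 for endothelium and endocardium, 13 of 14 for cushion and valve, and 10 of 12 for the epicardium. It was 10 of 12 for housekeeping genes, 3 of 12 for liver genes, 3 of 6 for skeletal myogenic genes, 12 of 17 for neural genes and 10 of 11 for red blood cell genes. Autosomal peaks numbered 115330 in replicate 1 and 112033 in replicate 2, and the peak lists hold no read totals, so depth is unknown.

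The 17899 regions covered 8.04 Mb. Sequence that satisfies the position rule made up 510.8 Mb, or 21.3% of the autosomes without assembly gaps, so the density was 35.0 regions per Mb. Sequence inside protein-coding genes at the same distance held 46.8 regions per Mb, and intergenic sequence more than 100 kb from a start held 17.3 per Mb. The 10 to 100 kb zone between genes was therefore less densely occupied than gene bodies at that distance and more densely occupied than the remote intergenic genome. Taking each replicate alone, the same rule kept 21743 peaks of replicate 1 and 21072 peaks of replicate 2. A counterpart in the other replicate was found for 79.9% and 82.4% of them, compared with 94.6% and 94.3% of peaks within 1 kb of a start. Other distal classes were close to the former, with 80.5% and 79.6% of peaks 1 to 10 kb from a start. Peaks in gene bodies at 10 to 100 kb had 77.2% and 81.2%, and remote intergenic peaks 77.7% and 80.3%.

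Accessibility of the intergenic regions was moderate. Their median fold enrichment was 6.25 in replicate 1 (quartiles 4.89 and 9.24) and 5.53 in replicate 2 (quartiles 4.27 and 8.30). Regions within 1 kb of a start had medians of 19.6 and 19.9, whereas regions in gene bodies at 10 to 100 kb had 5.98 and 5.28 and remote intergenic regions 5.98 and 5.28. The intergenic regions 10 to 100 kb out thus lay far under promoters and differed from the other distal classes by less than the gap between the replicates. Their median length was 362 bp, against 1136 bp at starts, and 1062 of them, 5.93%, exceeded 1 kb. Values above 20 in both replicates were reached by 444 regions, 2.48%, and 4137 regions, 23.1%, stayed under 5 in both.

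**Figure D1:**
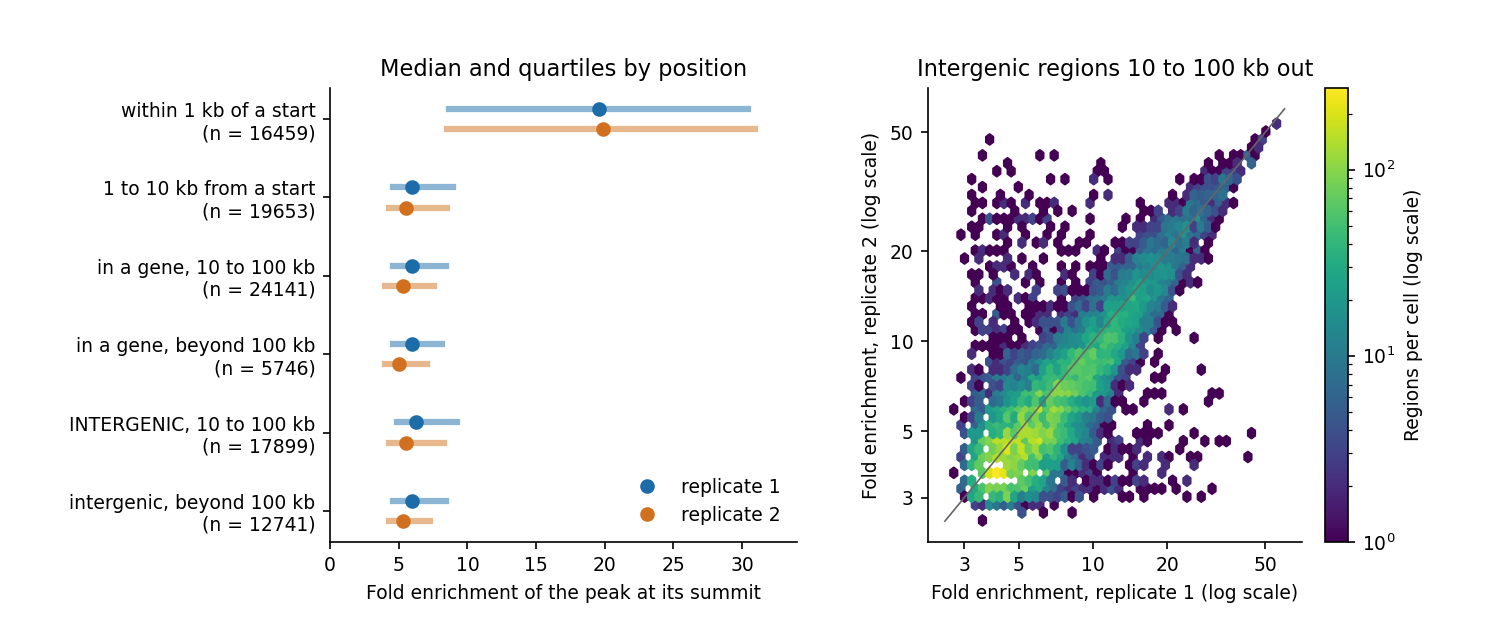
Left, median (point) and quartiles (bar) of the fold enrichment in replicate 1 (blue) and replicate 2 (orange) for shared regions in each of 6 position classes, with the number of regions. Right, fold enrichment of the 17899 intergenic regions in replicate 1 (x) against replicate 2 (y), both on log axes, coloured by the number of regions per cell; most lie along the diagonal, and the sparse points far from it are largely regions whose peak in either replicate is split over several regions.

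The replicates gave similar values region by region. Spearman's rho between the replicates was 0.750 across the 17899 regions, which are not independent replicates. The values differed by more than 2-fold in 543 regions, 3.03%, and 414 of these came from a peak that spans several regions, so that its summit lies in only some of them. Among the 16032 regions with a peak of their own in both replicates, rho was 0.808 and 129 differed by more than 2-fold. Both summits fell inside 89.4% of the regions, with a median of 48 bp between them. Peaks that met the position rule but had no counterpart in the other replicate were mostly weak, with medians of 4.07 in replicate 1 and 3.77 in replicate 2. The strongest of them was a peak of 1263 bp at chr12:8640601-8641863, nearest *Pum2*, an RNA-binding translational repressor, which reached 36.4 in replicate 1 and had no overlapping peak in replicate 2.

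Density hardly depended on distance within the first 60 kb. It was 36.1 regions per Mb at 10 to 20 kb, 36.4 at 40 to 50 kb, 35.1 at 50 to 60 kb and 29.3 at 90 to 100 kb. Peaks of replicate 1 alone went from 43.9 to 36.8 per Mb between the first and last of these steps, and peaks of replicate 2 from 42.8 to 35.1, so the lower density at the far end was present in each replicate. Median fold enrichment did not follow it, ranging from 6.25 to 6.52 over the steps in replicate 1 and from 5.28 to 5.78 in replicate 2. The limits of the rule marked no break. Regions at 9 to 10 kb, just outside the near limit, had 37.0 per Mb and medians of 6.25 and 5.53, and those at 10 to 11 kb had 37.1 per Mb and medians of 5.98 and 5.53. At the far limit, 90 to 100 kb and 100 to 110 kb both had 29.3 per Mb, with medians of 6.25 and 5.28 inside and 6.25 and 5.53 outside.

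**Figure D2:**
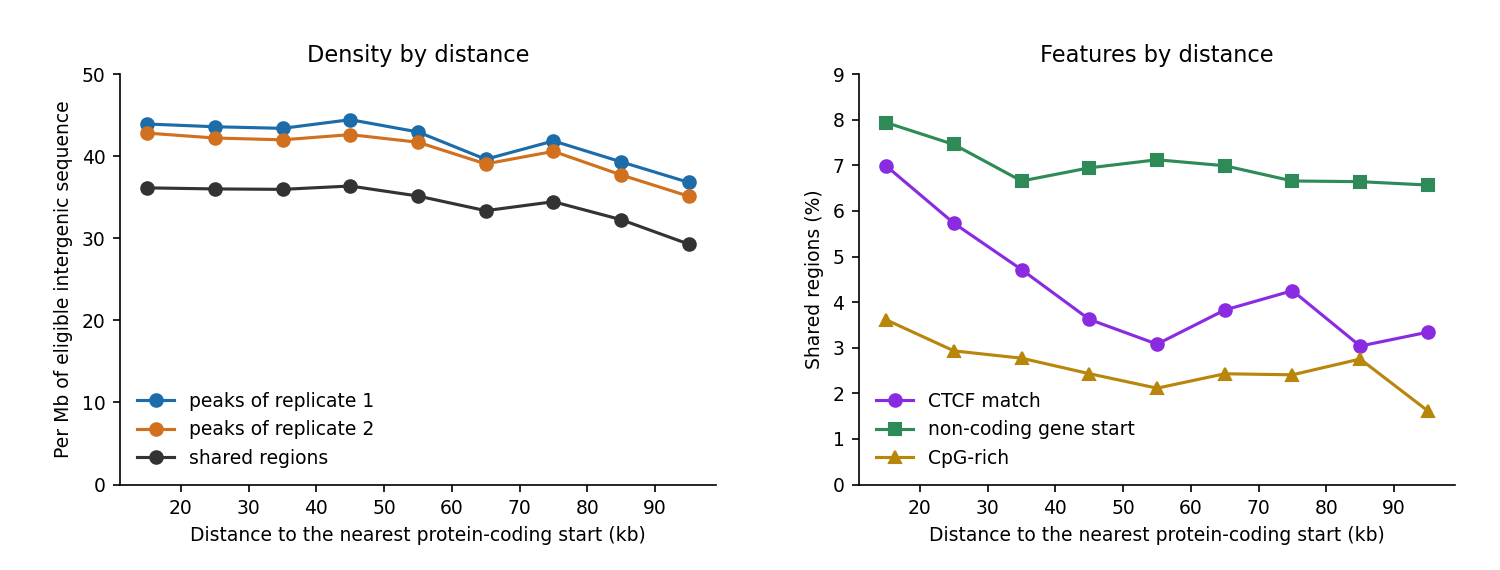
Left, number per Mb of eligible intergenic sequence in 10 kb steps of distance (x, kb) for peaks of replicate 1, peaks of replicate 2 and shared regions; the 3 lines run in parallel, and shared regions go from 36.1 to 29.3. Right, percent of shared regions in each step that hold a CTCF match, lie at a non-coding gene start or are CpG-rich; the CTCF share goes from 6.99% to 3.34%.

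Of the regions, 11105 lay upstream of the nearest start and 6794 downstream. With the gene's own body left out, more eligible sequence is upstream (328.3 Mb against 182.6 Mb), and per Mb the downstream side held 37.2 regions against 33.8 upstream. Each replicate alone gave the same order, with 45 against 41.2 peaks per Mb in replicate 1 and 43.8 against 39.8 in replicate 2. Among autosomes, density ran from 26.6 per Mb on chromosome 7 and 28.9 on chromosome 14 to 40.2 on chromosome 2 and 41.1 on chromosome 12. Replicate 1 alone put chromosome 7 at 30.9 and chromosome 12 at 50.3 peaks per Mb, and replicate 2 alone at 30.9 and 48.5.

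A subset of the regions lay at starts of genes that the position rule did not consider. An annotated start of a non-coding gene or pseudogene fell within 1 kb of the midpoint, or within the region if longer, for 1287 regions (7.19%), of which 955 were at lncRNA starts, 218 at pseudogenes and 33 at microRNAs. These regions were stronger than the rest in both replicates, with medians of 7.33 and 6.79 against 6.25 and 5.53, and 9.95% of them exceeded 20 in both replicates against 1.90%. By sequence, 499 regions (2.79%) were CpG-rich, meaning a GC content above 55% and an observed-to-expected CpG ratio above 0.65 within 150 bp of the centre. The CpG-rich regions had medians of 13.0 and 12.1 and were much longer, at 824 bp. Of these, 312 had no annotated start nearby, with medians of 11.4 and 10.4, and 187 had one, with 16.0 and 16.6.

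At microRNA starts, the strongest region was that of *Mirlet7i*, a member of the let-7 family, with 35.9 and 37.0, followed among named microRNAs by *Mir193a* with 15.8 and 16.6. *Mir1a-1*, a muscle microRNA nearest *Gata5*, had a weak region of 4.89 and 4.27. *Mir145a*, a microRNA of smooth muscle, lay in a region of 1538 bp with 6.25 and 7.54. This region belongs to a run of 22 regions upstream of *Il17b* that also covers starts of the lncRNAs *Bvht* (Braveheart, required for cardiac lineage commitment in cell culture) and *Carmn*, and the highest value in that run was 22.3 in replicate 1, with 15.3 in replicate 2, 35.6 kb upstream of *Il17b*.

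The 10 regions with the highest fold enrichment in the weaker replicate were mostly such starts. The strongest, nearest *Cct8l1*, lay at the start of the lncRNA *1700096K18Rik* and had 54.1 and 53.5. The second, nearest *Zfp958*, lay at *Gm7461* with 55.7 and 52.0, and its centre carried a pair of ETS matches. *Mir17hg* followed with 49.7 and 49.0. The starts of *Gm15287*, *6720427I07Rik*, *Snhg8* (a host gene of small nucleolar RNAs), *Gm48296* and *1810026B05Rik* had values between 43.0 and 50.3. The other two of these 10 had no annotated start nearby. That nearest *Wnt7b*, a secreted Wnt ligand, had 50.3 and 47.8 and lay 52.4 kb upstream, and that nearest *Ccne1*, the cyclin E gene, had 45.1 and 46.3 and lay 21.4 kb downstream. All 10 had a GC content between 58.5% and 75.4%, against a median of 49.8% over the 17899 regions.

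Sequence around the summits was searched for 17 motifs on both strands, by exact letters, so a match is a description and not evidence of binding. Matches to AGATAA or TGATAA, written here as GATA, occurred within 150 bp of the centre in 37.4% of the regions, against 33.8% of all shared regions, 10.2% at starts, 38.6% in gene bodies at 10 to 100 kb and 45.5% in remote intergenic regions. The MEIS letters TGACAG occurred in 29.7%, the E-box CAGCTG in 25.9%, the HAND/TWIST E-box CATCTG in 24.4%, the ETS letters CAGGAAG or CCGGAAG in 20.2% and the TEAD letters CATTCCT or CATTCCA in 16.1%. Over all shared regions, in the same order, these were 28.6%, 24.3%, 22.5%, 20.3% and 14.8%. SOX (AACAATG or AACAAAG) had 12.3% against 11%, AP-1 (TGAGTCA) 10.7% against 8.67%, NKX2-5 (TCAAGTG or TTAAGTG) 8.44% against 8.22%, and T-box (AGGTGTG) 5.29% against 5.09%. The motifs of MEF2 and of SRF (the CArG box), which are bound in muscle genes, had 2.44% against 2.13% and 1.94% against 1.69%. Rarer letters were those of OCT (ATGCAAAT) with 1.36% against 1.29%, of the liver factor HNF4 (CAAAGTCCA) with 0.436% against 0.391%, and of NFI with 0.162% against 0.141%. The motif of HNF1, another liver factor, matched 0 of the 17899 regions.

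Among motifs with more than 100 matches, CTCF had the share that differed most, as a ratio, from all shared regions. It occurred in 4.88% of the intergenic regions 10 to 100 kb out, in 4.09% of regions 1 to 10 kb from a start, in 3.05% of regions in gene bodies at the same distance, in 1.92% of remote intergenic regions and in 3.05% of all shared regions. Within the zone it was 6.99% at 10 to 20 kb and 3.34% at 90 to 100 kb, while GATA went from 35.8% to 39.6% and MEIS from 27.7% to 35.8%. Neither GATA nor MEIS rose steadily, with GATA at 41.5% at 70 to 80 kb and MEIS at 29.7% at 80 to 90 kb. Regions with a CTCF match (874) had medians of 5.70 and 5.53, close to those without (6.25 and 5.53), and 0.915% of them exceeded 20 in both replicates. Regions with a MEF2 match (436) had medians of 6.79 and 5.53, and regions with an AP-1 match (1911) had 6.52 and 5.78. For GATA the medians with and without a match were equal, at 6.25 in replicate 1 and 5.53 in replicate 2.

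Most motifs were concentrated at the centre of the regions. CTCF matches occurred 0.251 times per kb within 50 bp of the centre and 0.0105 times per kb at 500 to 1000 bp, a ratio of 23.9. The ratio was 5.09 for MEF2, 2.49 for AP-1, 2.34 for CAGCTG, 1.88 for MEIS, and 1.78 for both GATA and ETS. It was 1.75 for TEAD, 1.37 for SRF, 1.23 for NKX2-5, 1.19 for HAND/TWIST and 1.01 for SOX. NFI had 13.1, from 13 central matches only. T-box matches showed the opposite pattern, with 0.177 per kb at the centre and 0.275 per kb in the flanks, a ratio of 0.645, and HNF4 and OCT had 0.862 and 0.803. Base composition varied along the same axis, from 50.9% GC at the centre to 44.8% at 950 to 1000 bp, and its part in the ratios was not tested. When bases of annotated repeats were left out, an alternative chosen after the data were seen, the ratios were 20.3 for CTCF, 1.71 for GATA and 0.694 for T-box.

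**Figure D3:**
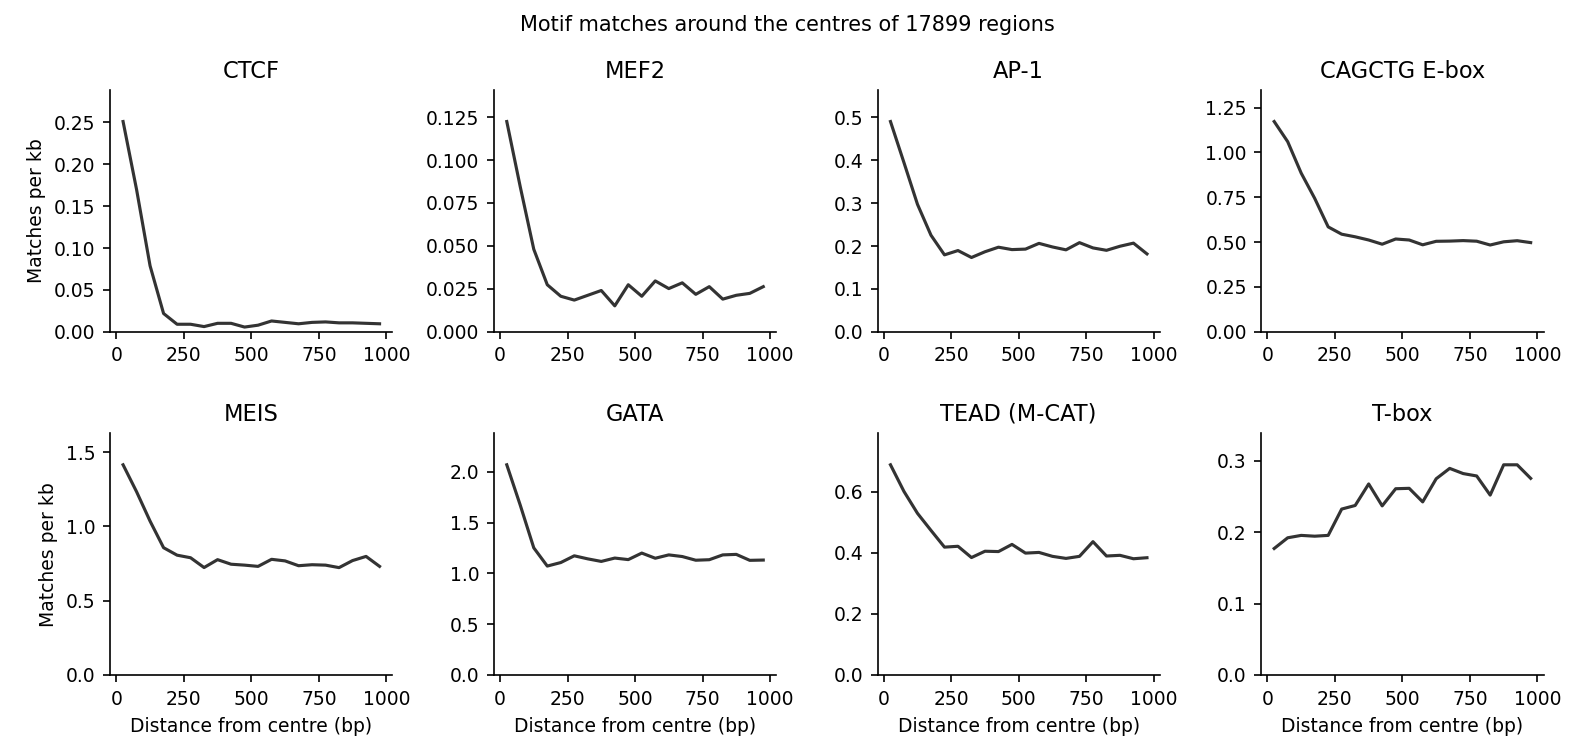
Matches per kb (y, own scale in each panel, from 0) against the distance from the region centre (x, bp, both sides combined in 50 bp bins) for 8 motifs. The T-box panel is lowest at the centre, at 0.177, and the others are highest there and level off within the first few bins.

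Genes were then compared by how many of these regions they were nearest to. Of 13252 autosomal protein-coding genes with any eligible sequence, 6020 (45.4%) were the nearest gene of at least 1 region and 1166 (8.8%) of 5 or more. These shares depend on the amount of eligible sequence that a gene has. Only 15.1% of genes with up to 10 kb of it had a region, against 81.9% of genes with 100 to 180 kb, so counts are also given per 100 kb of eligible sequence, where the value over all genes was 3.5. Among cardiac transcription factors, 27 of 29 genes (93.1%) had a region and 17 had 5 or more. They had a median of 5 regions, against 0 over all genes. Their median eligible sequence was 90 kb, against 21.7 kb over all genes, and their density was 6.37 regions per 100 kb. Of all genes with 50 to 100 kb, 73.5% had a region, at 3.45 per 100 kb. By replicate, the density of peaks near these genes was 7.64 per 100 kb in replicate 1 and 6.99 in replicate 2, against 4.26 and 4.13 over all genes. When lncRNA genes were counted as genes too, 11 of the 19 factor genes that kept eligible sequence had a region (57.9%), against 36.1% of all genes.

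**Figure D4:**
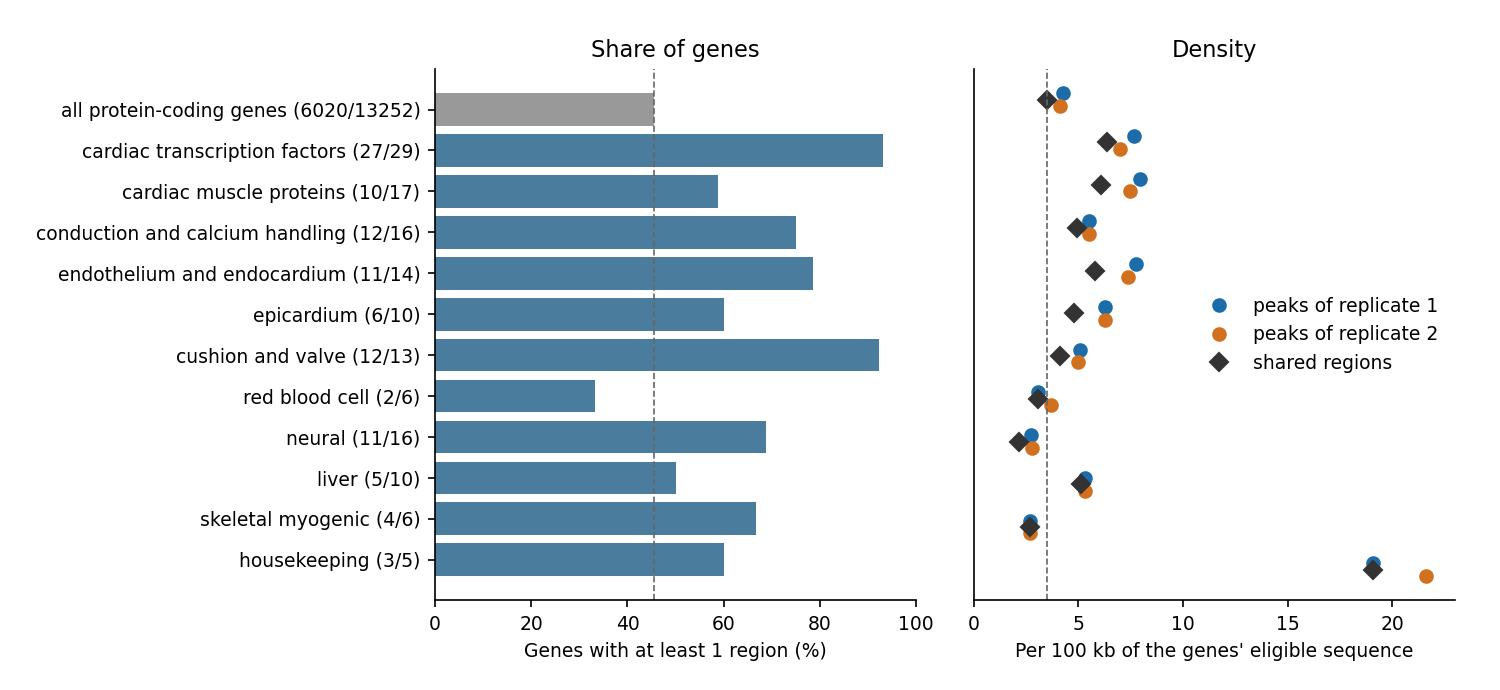
Left, percent of genes with at least 1 intergenic region 10 to 100 kb out, for all protein-coding genes (grey, and dashed line at 45.4%) and 11 gene lists, with the number of genes with a region over the number with eligible sequence. Right, shared regions (diamonds) and peaks of each replicate (circles) per 100 kb of the eligible sequence of those genes. The dashed line is the value of shared regions over all genes (3.5), while the circles of all genes are at 4.26 and 4.13. Diamonds of red blood cell (3.08), neural (2.16) and skeletal myogenic genes (2.69) lie to the left of the line. Those of the other lists lie to the right, among them cardiac transcription factors (6.37), liver (5.14) and housekeeping genes (19.1).

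Among the transcription factors, the counts were uneven. *Hey1*, a target of Notch signalling in atrium and endocardium, had 27 regions, *Hand2* 19, *Nr2f2* (COUP-TFII, an atrial identity factor) 19, *Mef2c* 16 and *Gata5* 14. *Mef2a* had 11, *Irx4*, a ventricular factor, had 9 and *Gata4*, a zinc-finger factor of cardiomyocytes and endocardium, had 8. Per 100 kb of eligible sequence, *Gata5* was highest of these with 22.2, ahead of *Hey1* with 17.0. At the other end, *Tbx5*, *Foxc1*, *Irx5* and *Zfpm2* (FOG-2, a GATA cofactor) had 2 each, and *Mef2d* had 1, which was strong, at 32.9 and 35.7. *Tead1*, a factor of the Hippo pathway, had 3 regions with medians of 19.8 and 14.1. *Shox2* had none in 90 kb of eligible sequence, and *Prdm16*, with only 5.5 kb of it, had none either.

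Around *Hand2*, 16 of the 19 regions lay downstream of the nearest start, 4 of them at starts of the lncRNAs *5033428I22Rik* and *Gm34030*. The strongest other region there lay 32.9 kb downstream with 22.0 and 19.4, and a region 71.8 kb upstream had 17.9 and 13.3. *Mef2c*, a MADS-box factor of muscle and the second heart field, had 14 of its 16 regions downstream. The strongest of them lay 92.3 kb away with 26.1 and 26.6, was CpG-rich with 67.8% GC, and had no annotated start nearby. Another, 78.1 kb downstream, had 23.6 and 22.9. All 8 regions of *Gata4* lay upstream, between 12.2 and 72.4 kb from the start. That gene had only 62.7 kb of eligible sequence, against 147.5 kb for *Hand2* and 175.8 kb for *Mef2c*. Eligible sequence was not split by side for single genes, so the side of their regions cannot be compared. *Tbx3*, a repressor that specifies conduction tissue, had 4 regions, including 1 of 19.3 and 17.6 at 19.0 kb upstream and 1 of 14.7 and 10.1 at 95.3 kb upstream, at the start of *Tbx3os1*. *Isl1*, the second heart field factor, had 5, the strongest by the lower value at 8.96 and 9.55. Another, 15.4 kb downstream, had 9.78 and 7.54.

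Cardiac muscle proteins had a median of 11.1 kb of eligible sequence. Of these genes, 10 of 17 (58.8%) had a region, at 6.07 per 100 kb, against 45.4% of all genes and 38.8% of all genes with 10 to 25 kb. *Lmod2*, an actin filament elongation factor, and *Myoz2*, a Z-disc protein, had 5 each, *Des*, the intermediate filament desmin, had 4, and *Tnnt2* and *Tpm1*, both of the thin filament, had 3 each. *Myl3*, an essential myosin light chain, had 1 region of 22.3 and 25.9. *Actc1*, the cardiac actin gene, had 47.3 kb of eligible sequence but 0 shared regions, with 3 peaks in replicate 1 and 0 in replicate 2. In the list of conduction and calcium handling, 12 of 16 genes had a region (75%, against 45.4% of all genes), at 4.93 per 100 kb. Their median eligible sequence was 39.6 kb, and of all genes with 25 to 50 kb 58.2% had a region. The counts were led by *Ryr2*, the calcium release channel, with 12, *Gja1*, connexin 43, with 7, and the pacemaker channel *Hcn4* and the potassium channel *Kcnj5* with 4 each. The strongest region of *Hcn4* had 8.96 and 5.78, and that of *Kcnj5* had 19.8 and 17.8. *Pln*, which encodes phospholamban, had 35.7 kb of eligible sequence and 0 regions.

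In the endothelial and endocardial list, 11 of 14 genes (78.6%) had a region, against 45.4% of all genes, at 5.80 per 100 kb. Their median eligible sequence was 52.5 kb, and of all genes with 50 to 100 kb 73.5% had a region. Regions were found for *Cdh5*, VE-cadherin, with 11, the VEGF receptor gene *Kdr* and the ETS factor gene *Fli1* with 6 each, and the capillary sialomucin gene *Emcn* and the receptor gene *Flt1* with 5 each. Of the genes of cushion and valve, 12 of 13 had a region, at 4.12 per 100 kb. Their median eligible sequence was 119.2 kb, and of all genes with 100 to 180 kb 81.9% had a region. *Bmp2*, which induces cushion formation, had 12, *Has2*, the hyaluronan synthase of the cardiac jelly, had 10 with medians of 8.56 and 5.53, and *Sox9* had 8, while *Bmp4* had 2, the stronger at 8.15 and 6.03. *Snai2*, a repressor active in epithelial-mesenchymal transition, had 138.4 kb of eligible sequence and 0 regions. Of the epicardial list, 6 of 10 genes (60%) had a region, at 4.79 per 100 kb. Their median eligible sequence was 25.1 kb, and the share over all genes was 38.8% with 10 to 25 kb and 58.2% with 25 to 50 kb. There were 8 at *Tcf21*, a bHLH factor of epicardial derivatives, and 0 at *Wt1*, which had 11.2 kb of eligible sequence.

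Lists of other tissues were counted in the same way. Of the neural genes, 11 of 16 (68.8%) had a region, against 45.4% of all genes and 73.5% of all genes with 50 to 100 kb of eligible sequence. Their median eligible sequence was 91.8 kb and their density 2.16 per 100 kb, under the 3.5 of all genes in shared regions and under the 4.26 and 4.13 of each replicate alone, with 2.72 and 2.79. *Sox2* had 9 and *Neurod1* 6. Skeletal myogenic genes had 4 of 6 and 2.69 per 100 kb, with 3 at *Pax3*, 1 each at *Myf5*, *Myog* and *Pax7*, and 0 at *Myod1* and *Myf6*. Red blood cell genes had 2 of 6 (33.3%) with 3.08 per 100 kb, over a median of 7.1 kb, and of all genes with up to 10 kb 15.1% had a region. Liver genes had 5 of 10 and 5.14 per 100 kb, and of the 27 regions of that list *Foxa2*, an endoderm factor, had 12 and *Apob*, the apolipoprotein of low-density lipoprotein, had 10. *Alb* had 1. The median eligible sequence was 40.9 kb for the skeletal myogenic and 27 kb for the liver list, and of all genes with 25 to 50 kb 58.2% had a region. Housekeeping genes had 3 of 5, with 10 regions upstream of *Eef1a1*, a translation elongation factor, and 4 upstream of *Actb*. That list had 15 regions in all, at 19.1 per 100 kb, over a median of 16.7 kb of eligible sequence, and of all genes with 10 to 25 kb 38.8% had a region.

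Across all genes, the 10 with the most regions were *Ackr3* (32), *Irs2* (31), *Hey1* (27), *S1pr1* (24), *Cpeb4* (23), *Il17b*, *Pim1* and *Zfp516* (22 each), and *Anapc15-ps* and *Ier5* (20 each). *Ackr3* is an atypical receptor that scavenges the chemokine CXCL12, *Irs2* is an adaptor of the insulin and IGF receptors, *S1pr1* is a sphingosine 1-phosphate receptor of endothelium, *Ier5* is an immediate early gene, and *Pim1* is a serine/threonine kinase. Counted as whole peaks, *Ackr3* had 28 in replicate 1 and 29 in replicate 2, fewer than its 32 regions, since some peaks covered several of them. *Irs2* had 33 and 38 and *Hey1* had 30 and 30, both more than *Ackr3* in each replicate. *S1pr1* had 25 and 28, and *Cpeb4*, an RNA-binding regulator of translation, 21 and 22. Per 100 kb, *Il17b* was highest of the 10 with 47.6 and *Pim1* followed with 40.7. At *Pim1*, 11 of the 22 regions lay at non-coding starts, and at *Il17b* 6 of 22, while *S1pr1* had none.

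*Ackr3* had 102.5 kb of eligible sequence, which was not split by side. All 32 of its regions lay downstream, between 14.0 and 85.6 kb from the start. The highest of them had 30.4 and 33.2 at 36.4 kb, 31.5 and 27.7 at 44.4 kb, and 25.5 and 30.2 at 85.6 kb, and the lowest value was 3.53 in replicate 1 and 3.02 in replicate 2. At *Irs2*, 13 lay upstream and 18 downstream, with 28.0 and 33.2 at 39.4 kb upstream and 27.2 and 24.4 at 62.2 kb downstream. *Hey1* had 19 upstream, among them regions of 27.4 and 23.6 at 50.5 kb, of 17.1 and 27.7 at 94.6 kb, and of 23.6 and 24.6 almost 100 kb away. For *S1pr1* the strongest region spanned 2249 bp at 72.7 kb downstream with 37.2 and 37.7, and another at 23 kb upstream had 29.9 and 21.9. That of *Cpeb4* lay 28.2 kb upstream with 25.5 and 31.9. The strongest of *Ier5* had 37.5 and 34.7 at 16.2 kb downstream, where the lncRNA *Gm9530* starts.

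**Figure D5:**
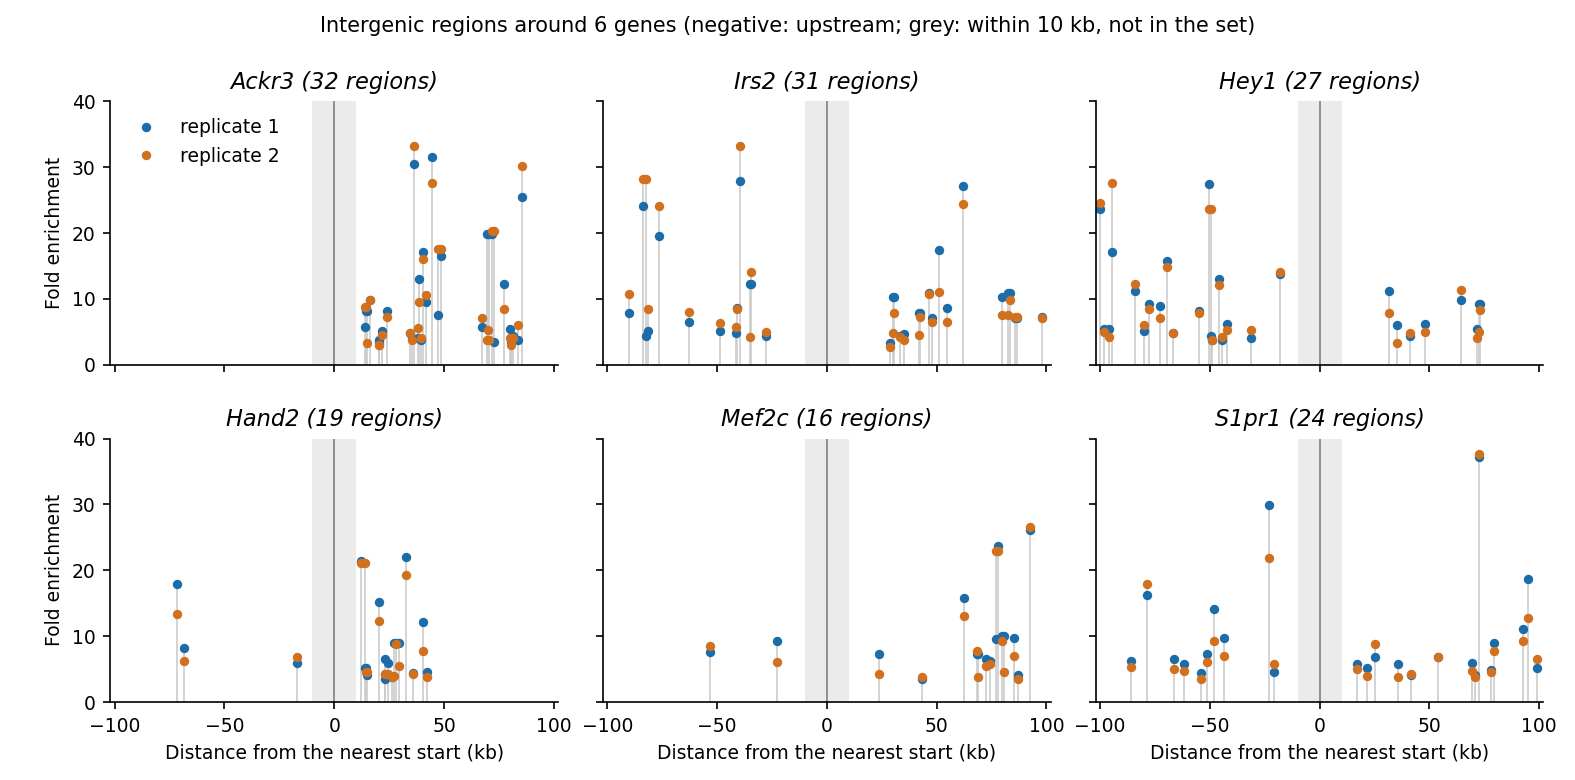
Fold enrichment (y) of each intergenic region 10 to 100 kb out in replicate 1 (blue) and replicate 2 (orange) against its distance from the nearest start of the gene (x, kb, negative upstream) for *Ackr3*, *Irs2*, *Hey1*, *Hand2*, *Mef2c* and *S1pr1*; grey marks the 10 kb on each side that the rule leaves out. Regions of *Ackr3* are all downstream and those of *Mef2c* mostly so, but the eligible sequence of these genes was not split by side. Where the points of a pair lie far apart, the peak of either replicate often spans several regions.

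The median gap between neighbouring regions was 13989 bp. Of all regions, 10.4% came from a peak that spans several regions, which places them next to each other by construction. When regions were joined at the usual stitching distance for enhancer clusters, between 12 and 13 kb, 609 groups had 5 or more regions and held 23.2% of all, and 5415 regions (30.3%) had no neighbour within that distance. The group with the most regions counted 26 over 86.1 kb next to *Cpeb4* and *Bod1*. It was followed by 24 over 54.8 kb next to *Pim1* and *Fgd2*, with medians of 8.96 and 7.04, and by 23 over 49.6 kb next to *Il17b* and *Csnk1a1*. Among cardiac genes, groups of 18 over 69.9 kb at *Hey1*, 16 over 31.8 kb at *Hand2* and 14 over 40.6 kb at *Irx4* and *Ndufs6* were among the 20 with the most regions. The last had medians of 6.38 and 4.53.

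Stronger regions differed from weaker ones in length and composition. Ordered by the lower of both fold enrichments, the weakest quintile had a median length of 211 bp and the strongest, with a lower value of at least 8.55, had 712 bp. CpG-rich regions made up 0.670% of the weakest quintile and 8.97% of the strongest, and regions at a non-coding start 5.59% and 12%. GATA matches went from 36.1% to 41%, and CAGCTG from 24.0% to 27.6%. In contrast, HAND/TWIST went from 25.6% to 22.2%, NKX2-5 from 9.16% to 7.57%, and CTCF was highest in the middle quintile with 6.26%. Distance did not order the regions, with medians of 36.9 kb in the weakest quintile and 35.6 kb in the strongest.

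*Shox2*, the transcription factor gene at the centre of the study, was the nearest gene of none of the 17899 regions. It had 90 kb of eligible sequence, in which replicate 1 alone had 1 peak. The rule reaches only 100 kb from a start. Most of the gene desert that the paper studies, with its sinus venosus enhancer, lies further from *Shox2* and was not counted for it here. The neighbouring gene *Veph1* had 1 region, 35.2 kb upstream, with 7.61 and 6.28.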

How the data were processed

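The submitters profiled E11.5 hearts with single-end 50 bp reads. According to the methods section, raw reads were trimmed (Trim Galore 0.6.6), mapped to GRCm38/mm10 (Bowtie2 2.4.2) and cleared of duplicates and poorly mapped reads (SAMtools 1.12), and the authors then ran MACS2 per replicate, with no local background. The deposited fold enrichment is a ratio at the summit, the deposited p-value and q-value columns are −log10 values, and the deposited score is the scaled q-value. The shortest peaks had 200 bp and the largest p-values were 0.000476 and 0.00104, and the lists were used as deposited. Repeated sequence is underrepresented.

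Replicates were intersected (bedtools 2.31.1) and positions taken from GENCODE M21, in Python 3.11.15 with NumPy 2.4.6, pandas 2.3.3, SciPy 1.17.1 and Matplotlib 3.10.9. Of annotated start codons, 99.92% read ATG in the reference. Eligible sequence was measured in 100 bp steps. Named genes were list members, the 10 genes with the most regions, *Shox2* and *Veph1*, and named regions were the 10 strongest and the strongest of 11 genes, unless said otherwise. The regions, gene lists and motifs were chosen with earlier results of these data known. Overlap, position and motif code was tested on simulated data. The supplementary peak tables were not used here. Some genes and a sequence that these rules name are not reported here.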

Additional observations from a re-analysis of the deposited data

Results flagged for a closer look

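Chromosome X was outside the autosomal rule. By the same position rule it held 515 shared regions, or 10.1 per Mb of eligible sequence, a signal outside the main measurement for which there are no control samples. The medians were 5.98 in replicate 1 and 5.53 in replicate 2. The lowest autosomal density was 26.6 per Mb, on chromosome 7. The cause was not tested.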

How the results depend on the processing

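No paired analysis was possible because both samples belong to a single group. In place of shared regions, the peaks of each replicate alone gave 21072 to 21743 intergenic regions, 18.8% to 18.9% of peaks, medians of 5.43 (replicate 1) and 5.03 (replicate 2), a density at 10 to 20 kb over that at 90 to 100 kb of 1.19 to 1.22 (1.23 as reported), 49.1% to 49.7% of genes and 93.1% to 96.6% of cardiac factor genes with a region. The share of 18.5% was again 18.5% with p-values of at most 0.00001, and it was 18.8% with a reciprocal overlap of 50%, 18.7% with whole replicate 2 peaks, 19.1% with basic transcripts only and 18.1% with lncRNA genes counted as genes. With lncRNA genes, the density ratio was 1.67, and 36.1% of all genes and 57.9% of cardiac factor genes had a region. Basic transcripts gave a density ratio of 1.26. Genes with a region made up 44.3% with the p-value limit and 43.9% with the reciprocal overlap. In alternatives chosen after the data were seen, a q-value of at most 1e-10 kept 7367 regions, 16.7% of shared regions, with medians of 9.78 and 8.8, a density ratio of 1.3, and 28.9% of genes and 82.8% of cardiac factor genes. Without regions at a non-coding start or CpG-rich, the values were 17.2%, 1.2, 43.4% and 89.7%. Placing the midpoint rather than every base outside genes gave 18.6%. In each case the cause was not tested. Joining at 5 kb or 25 kb gave 224 or 936 groups of 5 or more, which held 7.86% or 39.6% of the regions. It left 48.1% or 19.1% of the regions without a neighbour. The lists hold no read totals, so no counting error was computed, and 2 replicates give only a range.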
